A study of Mus musculus with 56 samples.

Results

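The genes described here mark T cells and cytotoxic lymphocytes in the liver: the CD3 chains Cd3d, Cd3e and Cd3g, the co-receptors Cd4, Cd8a and Cd8b1, the kinase Lck, the granule genes Nkg7 and Gzmb, and the inhibitory receptor Pdcd1. They were chosen by symbol, as the 10 rows of the deposited count matrix that carry these names, out of 21935 genes. All 10 passed the filter on low counts, as did 14105 genes in all. The rule uses names and no measured value, but the names were chosen with earlier results of these data known.

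T cells recognise antigen through a receptor that signals through the CD3 chains. CD4 binds MHC class II and CD8 binds MHC class I beside that receptor, and both bring the kinase LCK to it. Cytotoxic T cells and natural killer cells kill by releasing granules that hold granzymes, and PD-1, the product of Pdcd1, restrains T cells after activation. The liver holds resident lymphocytes of these kinds, and in steatohepatitis T cells that carry CD8 and PD-1 are known to gather there.

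RNA was sequenced from the livers of 56 male C57BL/6J mice, 8 in each of 7 groups and 5 to 6 weeks old on arrival, to ask how zalfermin, a long-acting FGF21 analogue, and semaglutide, a GLP-1 receptor agonist, act alone and together. Chow vehicle mice ate standard chow for 36 weeks before dosing and throughout it. They were injected under the skin once daily with vehicle for 8 weeks. The other 6 groups ate the AMLN diet, rich in fat, fructose and cholesterol, for 36 weeks before dosing and throughout it, which gives an obese mouse with steatohepatitis (DIO-MASH). For 8 weeks they were injected under the skin once daily with vehicle, zalfermin, semaglutide or both drugs together (combination). Zalfermin was given at 0.05 mg/kg in the low-dose group and at 0.2 mg/kg in the high-dose group. The corresponding amounts of semaglutide were 3 and 120 µg/kg. The study's methods give both low doses for the combination, whereas the series description gives both high doses. All 6 AMLN groups share the diet, so DIO-MASH vehicle was the control for the drugs and chow vehicle the control for the diet. AMLN mice were included only with steatosis and fibrosis in a liver biopsy before dosing. The comparison with chow therefore holds this selection as well as the diet. The model is a diet on a wild-type strain with no transgene, in males only.

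Libraries held 5228187 to 20885786 counted reads. The 10 genes drew few of them: 9 to 462 reads per liver, with a median of 161 and 9516 reads in all. Values are given as CPM, reads scaled to a common library total after TMM normalization. A library without a read of a gene allows a level of up to 0.144 to 0.574 CPM, depending on its depth. This limit is 3 reads over the library total before TMM scaling (counting error only). In normalized CPM, 1 read was 0.217 CPM in the shallowest library, chow vehicle replicate 3. Hepatocyte genes dominated every liver, with summed levels of 63834 to 238005 CPM for the 8 hepatocyte genes listed. In whole liver, fewer cells of a type and less RNA per cell cannot be told apart.

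Chow vehicle replicate 8 stood apart. A list of 20 genes of intestinal epithelium, written after the values were seen, summed to 3643 CPM in this liver, to 165 to 227 CPM in the other 7 chow livers and to 210 to 255 CPM in the DIO-MASH vehicle livers. In that liver 19 of the 20 genes exceeded all other chow livers and none was at 0. Examples, also chosen afterwards, were the brush border protein Vil1 at 272 CPM against at most 0.870 CPM in the other chow livers, and the goblet cell mucin Muc2 at 25.4 CPM against 0 reads in each of them. Gzma, a granzyme, reached 19.4 CPM there against at most 0.828 CPM, and Itgae, an integrin of lymphocytes in epithelium, 6.28 CPM against at most 0.768 CPM. Its 10 T cell and cytotoxic genes summed to 19.2 CPM, against 1.96 to 5.59 CPM in the other chow livers. The part of the intestinal genes in the values of this liver was not tested, and the counts of genes called between chow and the other groups are given with and without it.

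The genes lie at few sites of the mouse genome (GRCm38). Cd3g (chr9:44969572-44980431), Cd3d (chr9:44981786-44987339) and Cd3e (chr9:44998740-45009627) are neighbours on chromosome 9, with 1354 bases between the gene models of Cd3g and Cd3d and 11400 bases between those of Cd3d and Cd3e. Cd8b1 (chr6:71322788-71337494) and Cd8a (chr6:71373427-71379173) are neighbours on chromosome 6, 35932 bases apart, and Cd4 (chr6:124864692-124888221) lies on the same chromosome. Lck (chr4:129548344-129573641), Nkg7 (chr7:43437073-43438249), Gzmb (chr14:56258838-56262260) and Pdcd1 (chr1:94038305-94052553) each lie on a chromosome of their own. All 10 are protein-coding.

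The 250 bases before the RefSeq start (GRCm38.p6) are shown for the CD3 genes, which were all lower in chow, for Pdcd1, which differed most between the diets, and for Gzmb, which did not pass the test between them. Capitals mark matches on either strand to 4 short motifs. The first is AGGAAG, the core bound by ETS factors. The second is TGTGGT, bound by RUNX factors. The next is CTTTGA, bound by TCF and LEF factors. The last is TATAAA, the TATA box. No matches overlap each other in these windows.
Cd3g (chr9:44980432-44980681, reverse strand): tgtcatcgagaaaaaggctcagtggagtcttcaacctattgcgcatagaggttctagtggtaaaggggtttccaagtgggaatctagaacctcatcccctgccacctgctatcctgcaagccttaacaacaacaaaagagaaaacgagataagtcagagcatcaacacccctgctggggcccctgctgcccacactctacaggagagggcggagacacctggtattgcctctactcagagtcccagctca
Cd3d (chr9:44981536-44981785, forward strand): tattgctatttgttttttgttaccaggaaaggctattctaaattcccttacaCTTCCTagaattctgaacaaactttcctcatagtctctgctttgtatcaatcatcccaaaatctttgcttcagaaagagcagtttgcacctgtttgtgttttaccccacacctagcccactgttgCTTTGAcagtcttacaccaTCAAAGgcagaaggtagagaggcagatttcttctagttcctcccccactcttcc
Cd3e (chr9:45009612-45009861, reverse strand): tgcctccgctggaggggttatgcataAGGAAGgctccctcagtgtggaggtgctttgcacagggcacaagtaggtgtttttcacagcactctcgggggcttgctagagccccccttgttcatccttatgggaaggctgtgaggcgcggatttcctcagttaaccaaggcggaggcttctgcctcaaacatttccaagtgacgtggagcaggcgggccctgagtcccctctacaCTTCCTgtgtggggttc
Pdcd1 (chr1:94052554-94052803, reverse strand): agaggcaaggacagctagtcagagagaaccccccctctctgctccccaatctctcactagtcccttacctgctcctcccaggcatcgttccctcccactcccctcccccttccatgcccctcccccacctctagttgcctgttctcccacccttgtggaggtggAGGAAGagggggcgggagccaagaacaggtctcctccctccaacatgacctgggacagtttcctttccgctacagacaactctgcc
Gzmb (chr14:56262335-56262584, reverse strand): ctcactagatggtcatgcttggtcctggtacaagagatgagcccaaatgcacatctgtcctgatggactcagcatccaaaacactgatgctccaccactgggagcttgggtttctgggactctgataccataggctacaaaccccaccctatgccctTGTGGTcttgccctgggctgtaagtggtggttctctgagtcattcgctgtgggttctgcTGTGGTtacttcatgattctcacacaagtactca
RefSeq held 9 such windows for 8 of the 10 genes, since Lck has a pair of them, and Cd4 and Cd8b1 had none in the table used. AGGAAG occurred in 6 of the 9 windows and in 29.5% of all 32851 windows of the same length. TGTGGT occurred in 3 of the 9, against 14.05% of all windows, and CTTTGA in 1, that of Cd3d, against 13.8%. TATAAA occurred in 0 of the 9 and in 12.4% of all windows. The windows of Cd3g and Cd8a held none of the 4 motifs. A match of letters is a description of the window only.

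Per kilobase of exon and averaged over the 56 livers, the level was highest for Nkg7, at 2.14 CPM per kb, and the other 9 genes lay between 0.300 CPM per kb for Pdcd1 and 0.625 CPM per kb for Gzmb. Lck, at 0.622 CPM per kb, lay beside Gzmb, and Cd3d and Cd8b1 followed at 0.576 and 0.569 CPM per kb.

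In chow livers, 9 of the 10 genes were lower than in DIO-MASH vehicle livers, with Gzmb as the exception (edgeR's quasi-likelihood test, adjusted p under 0.05 over 14105 genes). In this comparison 28.9% of all genes tested were lower in chow. The median log2 fold change of the 10 genes was -1.81, and that of all genes tested -0.01. Without chow vehicle replicate 8, all 10 were lower, and 30.5% of all genes tested. Each difference is given below on the log2 scale as chow minus DIO-MASH vehicle, for most genes with its standard error (SE).

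**Figure D1:**
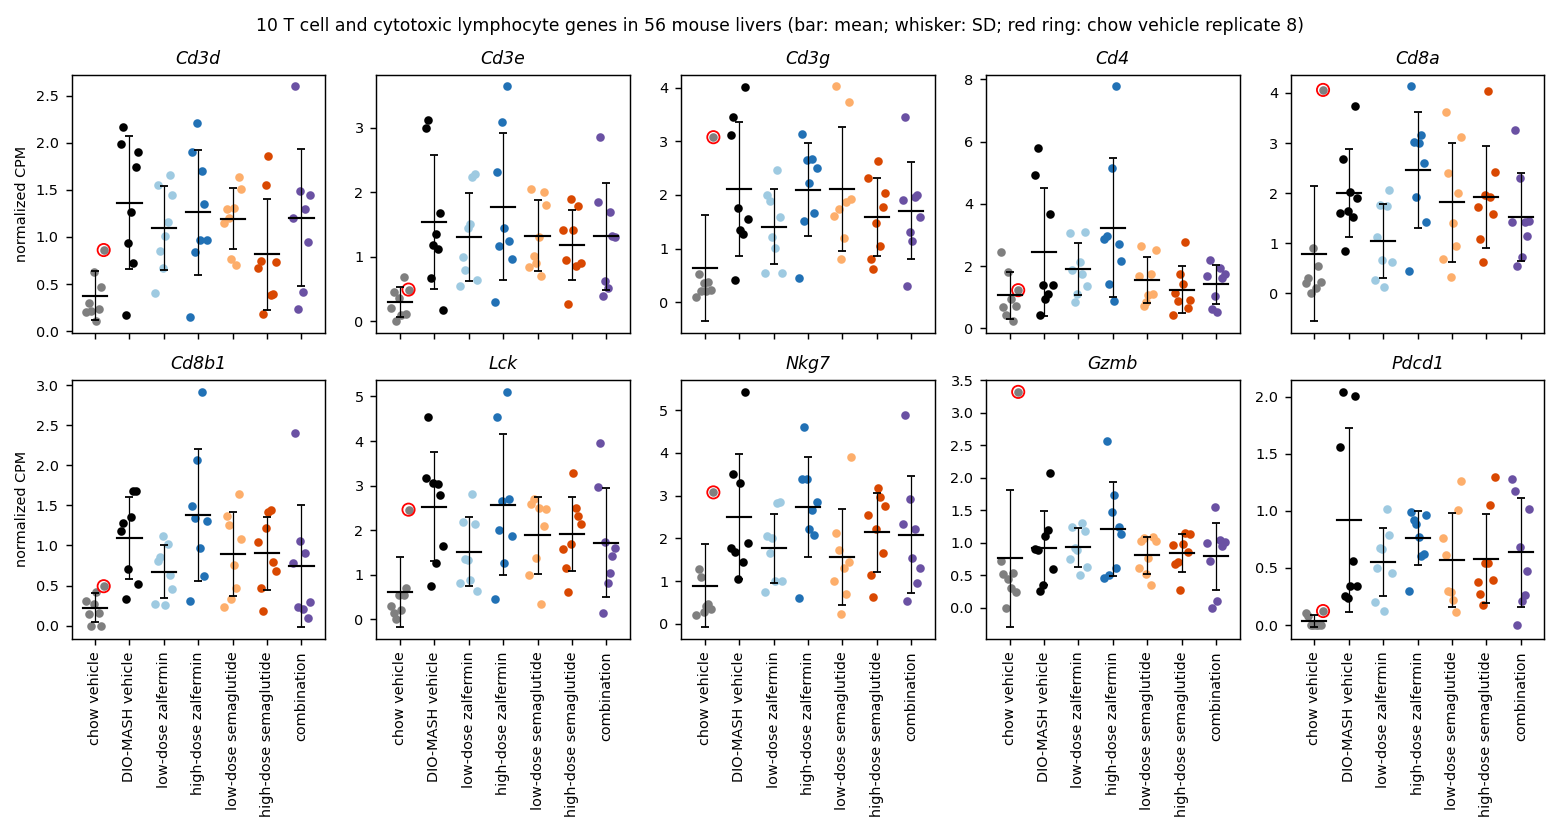
Normalized CPM (y axis, linear) of each of the 10 genes in the 56 livers, by group (x axis, n = 8 each). Points are livers, bars the mean and whiskers the SD. Red rings mark chow vehicle replicate 8, which sits at 4.06 CPM for Cd8a and 3.32 CPM for Gzmb, above every other chow liver, and at 0.492 CPM for both Cd3e and Cd8b1. DIO-MASH vehicle livers spread widely, as for Cd4 from 0.421 to 5.81 CPM.

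The CD3 chains, which carry the signal of the T cell receptor into the cell, were all lower in chow. Cd3d levels in chow were 0.104, 0.266 and 0.862 CPM (lowest, median and highest of 8 livers), and in DIO-MASH vehicle 0.168, 1.51 and 2.17 CPM. The groups overlapped, since 6 of the 8 vehicle livers lay above the highest chow liver. The log2 difference was -1.85 (SE 0.46, adjusted p = 0.000460), from means of 0.378 ± 0.258 and 1.36 ± 0.707 CPM (SD, n = 8).

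Cd3e, the chain most used to mark T cells, had 0, 0.283 and 0.692 CPM in chow and 0.173, 1.27 and 3.13 CPM in vehicle. One vehicle liver, replicate 8, was at the bottom with 2 reads of Cd3e, although it had 22 reads of Cd3d. The log2 difference was -2.21 (SE 0.52, adjusted p = 0.000139). Cd3g had 0.103, 0.298 and 3.08 CPM in chow and 0.421, 1.66 and 4.01 CPM in vehicle. The chow value of 3.08 CPM was replicate 8, and the other 7 chow livers ended at 0.527 CPM, below 7 of the 8 vehicle livers. The log2 difference of Cd3g was -1.77 (SE 0.48, adjusted p = 0.00138), and -2.76 without chow vehicle replicate 8 (adjusted p = 3.22e-06).

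Of the co-receptors, Cd8b1, the beta chain of CD8, differed most. Its level was 0, 0.212 and 0.492 CPM in chow and 0.336, 1.23 and 1.68 CPM in vehicle, where 7 of 8 livers lay above every chow liver. The log2 difference was -2.21 (SE 0.57, adjusted p = 0.000427). Cd8a, the alpha chain, which also forms a homodimer on some lymphocytes, had 0, 0.269 and 4.06 CPM in chow and 0.841, 1.77 and 3.75 CPM in vehicle. No vehicle liver exceeded chow vehicle replicate 8, while 7 of 8 exceeded the other chow livers. The log2 difference of Cd8a was -1.35 (SE 0.52, adjusted p = 0.0242) with all livers and -2.44 without that one (adjusted p = 9.28e-05). With only chow and vehicle livers in the fit, 7 of the 10 genes were lower, without Cd4 (adjusted p = 0.0554) and Cd8a (adjusted p = 0.0601). In the fit of all groups the Cd8a call was lost, with adjusted p of 0.0501 to 0.0635, when chow vehicle replicate 1, 2, 5 or 7 or DIO-MASH vehicle replicate 7 was left out.

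Cd4, the co-receptor of helper T cells that some macrophages and dendritic cells also express, had the smallest difference among the genes that passed. Its level was 0.231, 0.823 and 2.46 CPM in chow and 0.421, 1.40 and 5.81 CPM in vehicle. Only 3 of 8 vehicle livers lay above the highest chow liver. The log2 difference was -1.22 (SE 0.45, adjusted p = 0.0165), and the call was lost without DIO-MASH vehicle replicate 1 (adjusted p = 0.0600) or replicate 2 (adjusted p = 0.0793). Lck, the kinase that starts signalling at the receptor, had 0, 0.423 and 2.46 CPM in chow and 0.757, 2.91 and 4.53 CPM in vehicle. Without chow vehicle replicate 8 the groups did not overlap. The log2 difference of Lck was -2.05 (SE 0.50, adjusted p = 0.000392), and -2.75 without that liver (adjusted p = 1.05e-05).

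Of the granule genes, Nkg7 passed the test and Gzmb did not. Nkg7, a membrane protein of cytotoxic granules in T cells and natural killer cells, had 0.205, 0.439 and 3.08 CPM in chow and 1.06, 1.84 and 5.43 CPM in vehicle. Of the vehicle livers, 7 of 8 exceeded the highest of the other 7 chow livers, 1.28 CPM. The log2 difference of Nkg7 was -1.55 (SE 0.47, adjusted p = 0.00387). Gzmb, a protease that cytotoxic granules deliver into target cells, had 0, 0.489 and 3.32 CPM in chow and 0.252, 0.902 and 2.07 CPM in vehicle. The highest liver of all 16 was chow vehicle replicate 8. The log2 difference of Gzmb was -0.30 (95% interval -1.24 to 0.65, adjusted p = 0.607) with all livers and -1.12 without that one (adjusted p = 0.0306).

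Pdcd1, which encodes the inhibitory receptor PD-1, differed most of the 10 genes. In chow it had 3 reads in all, 1 read in each of 3 livers and 0 in the other 5, while the vehicle livers had 2 to 32 reads each and 112 in all. Vehicle levels were 0.235, 0.453 and 2.04 CPM, and 3 of the livers lay above 1.5 CPM while the other 5 were at 0.560 CPM or below. Over library totals without TMM scaling, the summed reads were 37.98 times higher in vehicle (exact 95% interval 12.7 to 187, counting error only). Normalized means were 0.0376 ± 0.0535 CPM in chow and 0.917 ± 0.806 CPM in vehicle (SD, n = 8). The log2 difference of Pdcd1 in the edgeR fit was -4.30, and -4.64 without chow vehicle replicate 8. Pdcd1 was the only 1 of the 10 genes without overlap between all 8 livers of each group, a pattern that 9.49% of all genes showed in this direction. Without chow vehicle replicate 8, Lck and Pdcd1 showed it, and 12% of all genes. The adjusted p of Pdcd1 was 1.63e-06.

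The genes not yet given without chow vehicle replicate 8 kept their calls. Their log2 differences were then -2.11 for Cd3d, -2.29 for Cd3e, -2.42 for Cd8b1, -1.26 for Cd4 and -2.14 for Nkg7, and the adjusted p of these 5 was at most 0.0189 in edgeR. Without that liver Pdcd1 had 2 reads in chow against 112 in vehicle.

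The mice carry sample numbers, grouped here at their widest gaps into 4 runs, and every group holds mice from at least 3 of these. Smaller gaps lie inside some of the runs, and the labels do not call the runs batches. In the runs with 4, 4 and 5 livers of both groups, all 10 genes were lower in chow, with median differences of -2.43, -1.81 and -2.11 in log2 CPM. In the remaining run, of 2 chow livers including replicate 8 and 1 vehicle liver, 8 of 10 were lower, with a median of -0.63.

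**Figure D2:**
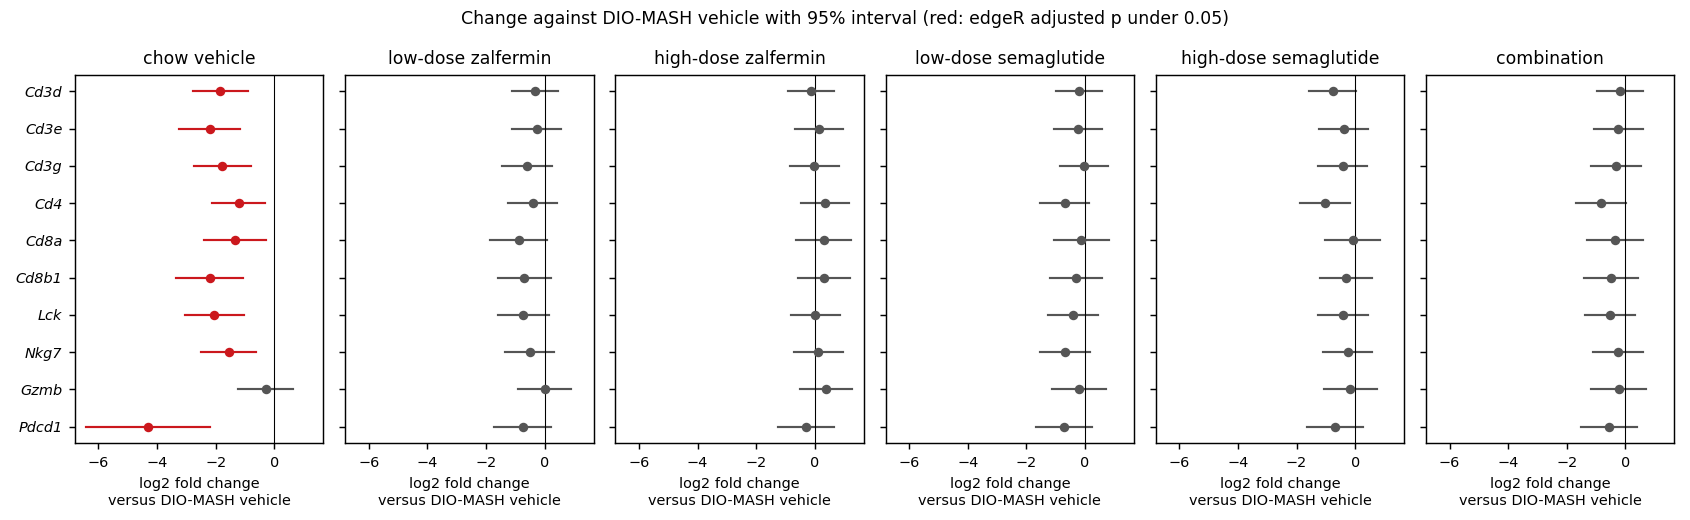
Log2 fold change against DIO-MASH vehicle (x axis) of each of the 10 genes (y axis) for chow vehicle and the 5 treatments, with 95% intervals from the fit of all 56 livers. Red marks an adjusted p under 0.05, which 9 genes reach in chow vehicle and 0 in each treatment, and Gzmb in chow vehicle spans 0.

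None of the 10 genes passed the test in any of the 5 treatments against DIO-MASH vehicle. Of all genes, 20.9% passed in the combination. For zalfermin the share was 0.468% at the low dose and 17.2% at the high dose, and for semaglutide it was 0% and 2.43%. At an unadjusted p under 0.05 in edgeR, Cd4 passed in high-dose semaglutide, and 0 of the 10 genes passed in the other 4 treatments. Of all 14105 genes, 4844 passed at that threshold in the combination and 2390 in high-dose semaglutide. In high-dose zalfermin 4239 did, in low-dose zalfermin 1593 and in low-dose semaglutide 1222. DESeq2 called 0 of 10 for the combination and both high doses, and gave no adjusted p for these genes at either low dose. These comparisons share the same 8 vehicle livers.

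In the combination the estimates of all 10 genes lay below 0, from -0.83 for Cd4 to -0.18 for Cd3d, with a median of -0.34 beside -0.03 over all genes. Cd4 in the combination livers was at 0.517, 1.66 and 2.21 CPM, within the range of the vehicle livers (0.421, 1.40 and 5.81 CPM). Its log2 difference was -0.83 (95% interval -1.68 to 0.03, adjusted p = 0.159). Cd3e was at 0.385, 1.32 and 2.86 CPM, with a log2 difference of -0.25 (95% interval -1.07 to 0.58). Cd8b1 was at 0.0950, 0.535 and 2.41 CPM, where the highest value was 1 liver and the next was 1.05 CPM, and its log2 difference was -0.49 (95% interval -1.40 to 0.42).

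With high-dose semaglutide all 10 estimates were below 0 as well, with a median of -0.41 beside -0.01 over all genes. Cd4 was at 0.449, 1.03 and 2.78 CPM, and 7 of the 8 livers lay at 1.75 CPM or below. Its log2 difference of -1.03 (95% interval -1.88 to -0.17) had an adjusted p of 0.196 in edgeR. Cd3d was at 0.177, 0.704 and 1.86 CPM, with a log2 difference of -0.77 (95% interval -1.57 to 0.03, adjusted p = 0.309), while Cd8a was at 0.620, 1.82 and 4.05 CPM, with a log2 difference of -0.08 (95% interval -1.02 to 0.85).

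With high-dose zalfermin 7 of the 10 estimates lay above 0, with a median of 0.14 beside -0.02 over all genes. Cd8a was at 0.452, 2.80 and 4.13 CPM, with a log2 difference of 0.30 (95% interval -0.63 to 1.24). Cd4 was at 0.869, 2.78 and 7.78 CPM, which includes the highest Cd4 value of all 56 livers, and its log2 difference was 0.33 (95% interval -0.48 to 1.15). Pdcd1 was at 0.302, 0.828 and 0.992 CPM, so its livers lay closer together than those of DIO-MASH vehicle, with a log2 difference of -0.29 (95% interval -1.25 to 0.66).

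At the low doses all 10 estimates were below 0 for each drug, with medians of -0.55 for zalfermin and -0.27 for semaglutide, beside -0.02 over all genes for zalfermin. The lowest was Cd8a with low-dose zalfermin, at 0.126, 0.894 and 2.06 CPM and a log2 difference of -0.89 (95% interval -1.87 to 0.09, adjusted p = 0.490). For low-dose semaglutide Cd4 and Pdcd1 had the lowest estimates, both -0.70, with an adjusted p of 0.691 for Pdcd1. Cd4 was at 0.719, 1.39 and 2.66 CPM, with a log2 difference of -0.70 (95% interval -1.54 to 0.14, adjusted p = 0.655). Mean Cd3g with low-dose semaglutide was 2.11 ± 1.15 CPM, beside 2.12 ± 1.25 CPM in vehicle (SD, n = 8).

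The direction of these estimates varied between the runs of sample numbers. In the first run all 10 genes were below vehicle in high-dose zalfermin (median difference -1.13 in log2 CPM, 3 and 2 livers) and in high-dose semaglutide (-1.41, 4 and 2 livers). In the second run 0 of 10 were below it, with medians of 1.07 (3 and 3 livers) and 0.88 (2 and 3 livers), and in the third run 8 and 10 of 10 were below it, with medians of -0.29 and -0.42 (2 and 2 livers each). For the combination 10, 6 and 9 of 10 genes were below vehicle in the 3 runs, with medians of -1.01, -0.11 and -0.57.

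Against chow, 6 to 9 of the 10 genes were higher in each treatment. With low-dose zalfermin 6 were (Cd3d, Cd3e, Cd3g, Cd8b1, Lck and Pdcd1), beside 25.1% of all genes. Low-dose semaglutide had the same 6 by name, beside 24.4% of all genes. With the combination 7 were higher, those and Nkg7, against 17.4% of all genes. With high-dose zalfermin 9 were higher, all but Gzmb, against 19.7%, and with high-dose semaglutide 7 (Cd3e, Cd3g, Cd8a, Cd8b1, Lck, Nkg7 and Pdcd1), against 21.3%. The 5 comparisons share the 8 chow livers, and without chow vehicle replicate 8 the counts were 9 and 10 for low and high zalfermin, 8 for each semaglutide dose and 8 for the combination. Without combination replicate 2 the count of the combination was 3 (Cd3d, Cd3e and Pdcd1), and without chow vehicle replicate 1 that of high-dose semaglutide was 4. The shares of all genes above are from the fit of all livers. None is given here for the fits that left out a liver, so these counts cannot be set against a share.

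The log2 difference of Cd3e to chow was 1.93 (SE 0.52) with low-dose zalfermin, 2.36 (SE 0.52) with high-dose zalfermin, 1.81 (SE 0.52) with high-dose semaglutide and 1.96 (SE 0.52) with the combination. Pdcd1 had 58 to 67 reads summed over the 8 livers of each treated group, against 3 in chow and 112 in DIO-MASH vehicle, and every treated liver but 1 combination liver had at least 1 read. The combination liver without a read of Pdcd1 lies in a group whose highest value was 1.28 CPM.

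Between treatments none of the 10 genes passed the edgeR test. All genes passed at 6.62% for the combination against low-dose zalfermin, 4.21% against low-dose semaglutide, 0.503% against high-dose zalfermin and 1.89% against high-dose semaglutide, at 1.84% for high against low zalfermin, 0% for high against low semaglutide and 0.447% for high-dose zalfermin against high-dose semaglutide. At an unadjusted p under 0.05, Cd4 passed in the combination against high-dose zalfermin and in high-dose zalfermin against high-dose semaglutide. Cd8a and Cd8b1 passed in high against low zalfermin, and 0 passed in the other 4. Of all 14105 genes, 1544, 1361 and 1906 passed at that threshold in the comparisons just named, in that order. For the combination, 2989 passed against low-dose zalfermin, 2489 against low-dose semaglutide and 2028 against high-dose semaglutide. For high against low semaglutide 549 did. DESeq2 called 0 of the 10 genes, among those for which it gave an adjusted p. The largest estimate was Cd4 in high-dose zalfermin against high-dose semaglutide, 1.36 (95% interval 0.51 to 2.22, adjusted p = 0.149), from means of 3.24 ± 2.23 and 1.25 ± 0.744 CPM (SD, n = 8). Cd8a in high against low zalfermin had an estimate of 1.19 (95% interval 0.21 to 2.18, adjusted p = 0.231).

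The low-dose interaction asks whether the combination differs from the sum of both low doses on the log2 scale, with the combination taken at its low doses. None of the 10 genes passed in edgeR, at an adjusted or an unadjusted p under 0.05. Of all genes, 0.0142% passed at an adjusted p, and 952 of 14105 at an unadjusted p. DESeq2 gave none of the 10 an adjusted p. The estimates ran from -0.03 for Gzmb to 0.94 for Nkg7, whose 95% interval was -0.26 to 2.15.

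**Figure D3:**
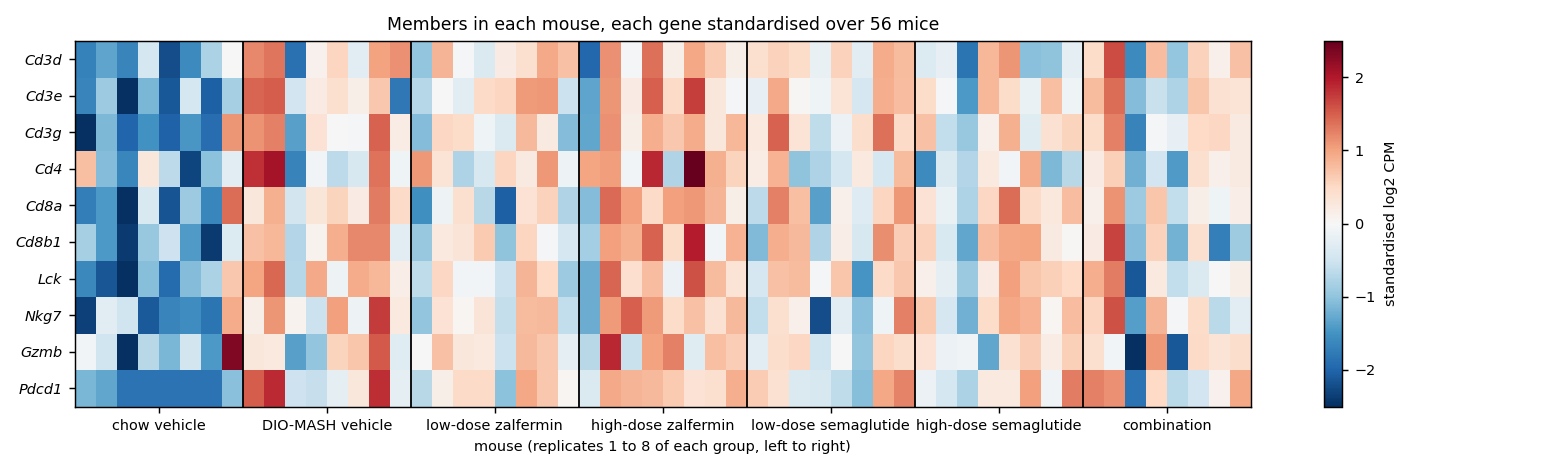
Log2 CPM of the 10 genes (rows), each standardised over the 56 livers, in every liver (columns, replicates 1 to 8 of each group from left to right). Chow livers are low in most genes, except replicate 8 at the right of that block. Replicate 3 of the combination and replicate 2 of the same group sit near opposite ends, at mean standardised values of -1.58 and 1.16.

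Livers within a group spread widely. The mean standardised log2 CPM of the 10 genes, a description of each liver, was -1.21 ± 0.740 in chow (SD, n = 8; -1.44 ± 0.387 without replicate 8), 0.387 ± 0.752 in DIO-MASH vehicle, 0.0382 ± 0.510 with low-dose zalfermin, 0.563 ± 0.686 with high-dose zalfermin, 0.141 ± 0.587 with low-dose semaglutide, 0.0778 ± 0.532 with high-dose semaglutide and 0.00216 ± 0.858 with the combination. The highest liver was DIO-MASH vehicle replicate 7 at 1.30 and the lowest chow vehicle replicate 3 at -2.16, which was also the shallowest library. Chow vehicle replicate 8 ranked 20 of 56 from the top, and the other chow livers ranked 48 or lower.

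After subtracting group means, the genes varied together across livers. The 45 pairs had Pearson r from 0.18 to 0.78 with a median of 0.60, over 56 livers that differ in depth. The closest pair was Cd3g and Cd8a, and Cd4 had the lowest median r with the other 9 genes, 0.34. Leaving out chow vehicle replicate 8, the range was 0.16 to 0.73 with a median of 0.59, and the closest pair was Cd3d and Cd3g. Cd3e was tested with 5 partners by 100000 shuffles within groups, with Benjamini-Hochberg adjustment over 5. With Cd8a, r was 0.58 (permutation p = 2e-05, adjusted 0.0001) and Spearman's rho 0.59 (permutation p = 1e-05, the smallest the shuffles can give, adjusted 5e-05). With Cd4, r was 0.42 (permutation p = 0.00443, adjusted 0.00554) and rho 0.45 (permutation p = 0.00156, adjusted 0.00195). This relation with Cd4 was lost when the means of each group within each run of sample numbers were subtracted and livers were shuffled within them, with r of 0.31 (adjusted permutation p = 0.0944) and rho of 0.29 (adjusted permutation p = 0.131). With Nkg7, r was 0.51 (permutation p = 0.00017, adjusted 0.000283) and rho 0.47 (permutation p = 0.00061, adjusted 0.00102).

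Cd79a, a B cell gene, varied with Cd3e as well, with r of 0.54 (permutation p = 5e-05, adjusted 0.000125) and rho of 0.52 (permutation p = 0.00016, adjusted 0.0004). With Adgre1, the macrophage marker F4/80, r was 0.11 (permutation p = 0.357, adjusted 0.357) and rho 0.026 (permutation p = 0.848, adjusted 0.848). Without the 2 livers farthest from the Cd3e median, r was 0.58 for Cd8a, 0.46 for Cd4, 0.48 for Nkg7, 0.55 for Cd79a and 0.16 for Adgre1. Within the first 3 runs of sample numbers (22, 15 and 16 livers), r with Cd8a was 0.74, 0.50 and 0.69, and with Nkg7 0.78, 0.46 and 0.38. With Cd4 it was 0.27, 0.69 and -0.025 and with Cd79a 0.57, 0.48 and -0.042, so neither held in the third run, and with Adgre1 it was 0.40, -0.12 and -0.19. The last run held 3 livers, too few for a value. In the 55 livers other than chow vehicle replicate 8, r with Cd3e was 0.59 for Cd8a, 0.42 for Cd4, 0.50 for Nkg7, 0.53 for Cd79a and 0.14 for Adgre1, and the first 4 still passed.

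The 10 genes outside the list whose pattern within groups was most like that of the CD3 chains were Gimap3 (r = 0.80), Ccl5 (0.79), Thy1 (0.78), Ptpn7 (0.76), Btla (0.76), Map4k1 (0.75), Cxcr3 (0.73), Lsp1 (0.73), Ltb (0.73) and Il21r (0.72), by Pearson r over the 56 livers among genes with a mean of 1 CPM or more. Thy1 is a surface protein of T cells, Ccl5 a chemokine, Cxcr3 a chemokine receptor and Btla an inhibitory receptor. These values are a description of the ranking, with no test. When chow vehicle replicate 8 was left out, 9 of the 10 were again among the first 10, with Ms4a4b (r = 0.75) in place of Lsp1.

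The balance between co-receptors was compared within each liver as a log2 ratio of reads, with 0.5 added to each count, by exact two-sided permutation tests against DIO-MASH vehicle. None of 12 tests passed after adjustment, with adjusted p of 0.615 to 0.990, and the smallest p that 8 against 8 livers allow is 0.000155. The ratio of Cd8a to Cd4 reads had a median of 1.25 in DIO-MASH vehicle (0.330 to 2.13) and of 0.429 in chow (0.102 to 3.19). The difference in mean log2 ratio was -1.17 between chow and vehicle (exact permutation p = 0.119, adjusted 0.615) and -1.17 between low-dose zalfermin and vehicle (exact permutation p = 0.0962, adjusted 0.615). In the other 7 chow livers, without replicate 8, the median was 0.385 (0.102 to 2.14) and the difference -1.57 (exact permutation p = 0.0275, adjusted 0.330). These 7 livers held only 0 to 10 reads of Cd8a and 2 to 24 of Cd4 each.

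The ratio of Cd8a to Cd8b1 reads had medians of 1.37 to 2.40 in the 7 groups. It was 2.14 in DIO-MASH vehicle and 2.40 in chow, where it ran from 0.333 to 7.44. Chow vehicle replicate 8 had the top of that range, with 33 reads of Cd8a and 4 of Cd8b1. Without that liver, the difference between chow and vehicle in mean log2 ratio was -0.29, against -0.0085 with it, and neither passed the test.

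**Figure D4:**
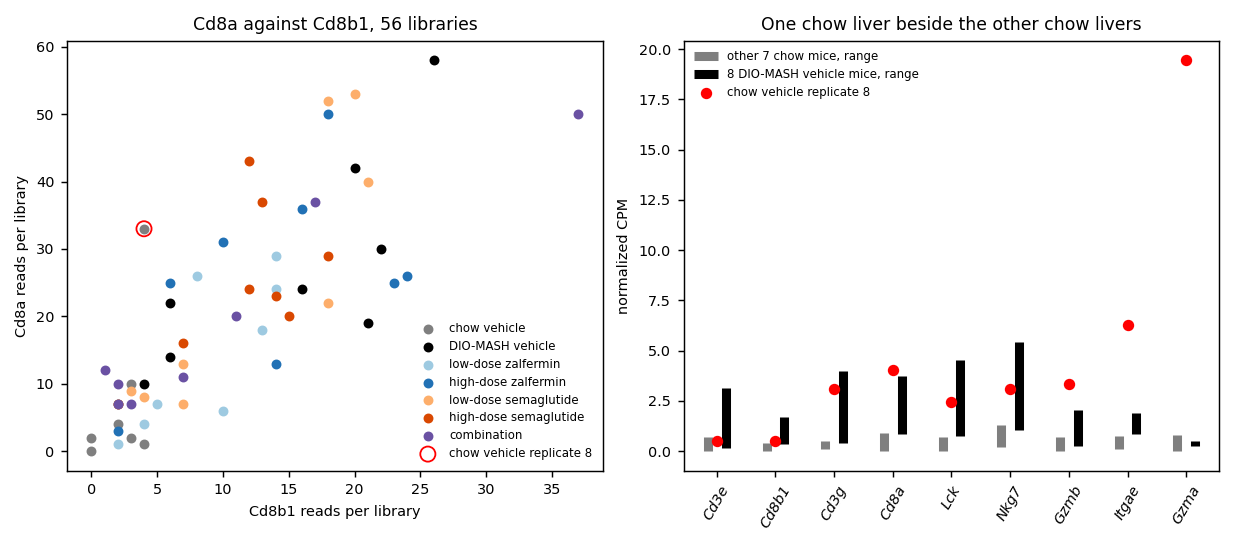
Left, reads of Cd8a (y axis) against reads of Cd8b1 (x axis) in the 56 libraries, coloured by group, with chow vehicle replicate 8 ringed at 33 and 4 reads. Right, normalized CPM of 9 genes in that liver (red points) beside the range of the other 7 chow livers (grey bars) and of the 8 DIO-MASH vehicle livers (black bars), where Gzma stands at 19.4 CPM and Itgae at 6.28 CPM.

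Other genes of T cells and their neighbours, in the lists chosen for this comparison, also differed between the diets. Of the genes of T cell receptor signalling, 13 of 16 tested were lower in chow than in DIO-MASH vehicle, 1 was higher and 2 did not pass. Cd2, an adhesion receptor of T cells, had 0.244 against 1.58 CPM and Lcp2, an adaptor of the receptor, 4.27 against 11.3 CPM in chow against vehicle. Themis, a regulator of receptor signalling in thymocytes, had 3.18 against 33.1 CPM, and Zap70, a kinase of the receptor, was higher in chow with 16.2 against 5.89 CPM. Mean Cd3e was lower than both, at 0.303 CPM in chow and 1.54 CPM in vehicle. Which cells of the liver carried Themis, Zap70 and the other listed genes was not tested. Of the genes of T cell lineage and memory, 12 of 16 were lower, such as Ccr7 (0.267 against 1.77 CPM) and Il7r (0.588 against 2.74 CPM), and 1 higher, S1pr1 (60.5 against 37.9 CPM). Without chow vehicle replicate 8, 13 receptor signalling genes and 11 lineage and memory genes were lower, since Il2ra lost its call, and Zap70 and S1pr1 were still higher.

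Of 19 cytotoxic and natural killer genes tested, 9 were lower in chow, 1 was higher and 9 did not pass. The chemokine Ccl5 had 1.80 against 10.4 CPM, and Klrd1, a receptor chain of natural killer cells, 0.0815 against 0.603 CPM. The gene that was higher was Gzma, at 2.68 against 0.360 CPM, a mean set by chow vehicle replicate 8. Without that liver mean Gzma in chow was 0.288 CPM, it did not pass, and 10 genes of this list were lower and 0 higher. Of 13 genes of inhibitory receptors and their ligands, 10 were lower, among them Havcr2 (0.540 against 2.81 CPM) and Btla (0.295 against 1.86 CPM), and Lgals9, at 576 against 456 CPM, was higher. Of 15 genes of recruitment and residency 13 were lower, such as the chemokine Cxcl16 (8.88 against 31.9 CPM) and the integrin chain Itgal (10.3 against 32.8 CPM). When that liver was left out, 10 of 13 and 13 of 15 were again lower, but not the same genes: Cd96 and Itgae passed, Nectin2 and Itga1 did not, and Lgals9 lost its call (adjusted p = 0.0930 in edgeR).

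Genes of other immune cells also differed in this comparison, and their part in the differences above was not tested. All 9 genes of leukocytes in general were lower in chow, with summed levels of 43.8 to 144 CPM in chow and 219 to 362 CPM in vehicle. Macrophage genes were lower for 10 of 13 (155 to 538 against 819 to 1284 CPM summed), type 1 dendritic cell genes for 7 of 8 (14.6 to 36.9 against 50.2 to 67.5 CPM) and B cell and plasma cell genes for 8 of 10 (4.87 to 322 against 9.84 to 201 CPM). The highest B cell and plasma cell sum in chow was replicate 8, most of it from Jchain, at 314 CPM. Of 5 mast cell and plasmacytoid dendritic cell genes tested 2 were lower and 1 higher, and of 6 genes of gamma-delta and innate-like lymphocytes 1 was lower and 2 higher. Hepatocyte genes were higher in chow for 7 of 8. Without chow vehicle replicate 8, B cell and plasma cell genes were lower for 9 of 10 (4.87 to 51.5 CPM summed in chow), mast cell and plasmacytoid dendritic cell genes for 3 of 5 with none higher, and gamma-delta and innate-like genes for 3 of 6, while the counts of the leukocyte, macrophage, dendritic cell and hepatocyte lists were as before. Of the genes of receptor complexes in the lists, Trac, Trbc1 and Trbc2 were not analysed here.

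**Figure D5:**
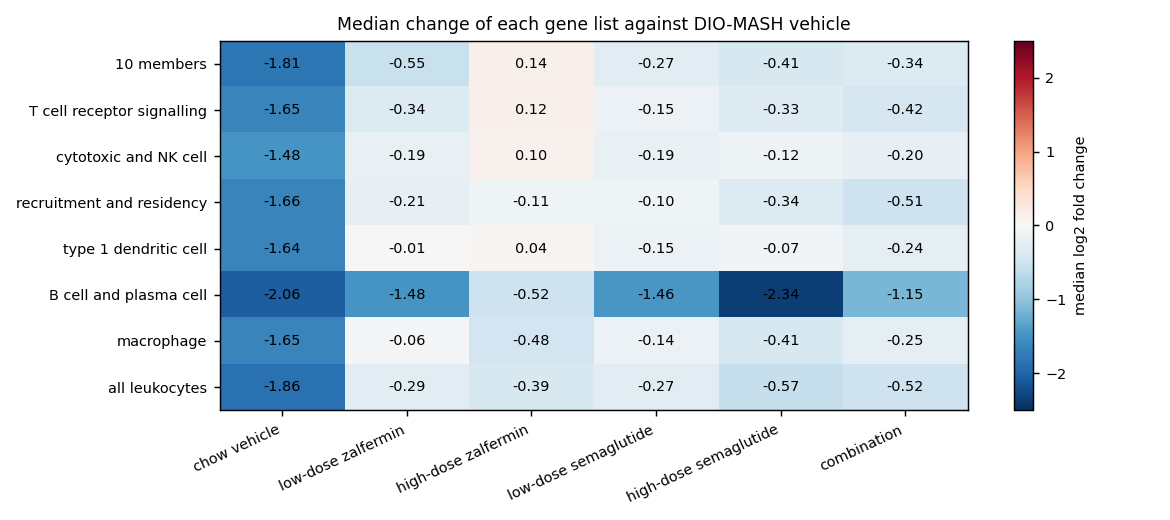
Median log2 fold change against DIO-MASH vehicle (colour and number) of the genes tested in each list (rows) for chow vehicle and the 5 treatments (columns). In chow every list shown lies between -2.06 and -1.48, and with high-dose semaglutide the B cell and plasma cell list is at -2.34 where the 10 T cell and cytotoxic genes are at -0.41. Without DIO-MASH vehicle replicate 1 that B cell and plasma cell median is -1.81.

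With high-dose semaglutide 5 of 10 B cell and plasma cell genes were lower than in DIO-MASH vehicle, while 0 of the 10 T cell and cytotoxic genes were, and the difference between the lists was not tested. A few vehicle livers carried these B cell means. Ms4a1, the B cell surface protein CD20, was at 0.432, 1.16 and 15.0 CPM in vehicle (lowest, median and highest) and at 0.288, 0.807 and 1.39 CPM with high-dose semaglutide, so the medians lay closer than the means of 4.49 and 0.776 CPM. Pax5, a transcription factor of B cells, was at 0.0841, 1.03 and 6.11 CPM in vehicle and at 0.0679, 0.213 and 1.05 CPM with high-dose semaglutide. The highest liver for both was DIO-MASH vehicle replicate 1, and without it the vehicle means were 2.99 CPM for Ms4a1 and 1.24 CPM for Pax5. The count of B cell and plasma cell genes that were lower was then 0 of 10. It was 1 without DIO-MASH vehicle replicate 2 or high-dose semaglutide replicate 3 or 4, 2 without high-dose semaglutide replicate 2, and 4 or 5 without each other liver of these groups. The summed B cell and plasma cell level was 9.09 to 30.6 CPM with high-dose semaglutide and 9.84 to 201 CPM in vehicle. Of the receptor signalling list, Themis was lower with high-dose semaglutide (13.5 against 33.1 CPM), high-dose zalfermin (3.53 against 33.1 CPM) and the combination (1.84 against 33.1 CPM). The call with high-dose semaglutide was kept in 11 of 16 fits that left out 1 liver of the groups compared, and the other 2 in 16 of 16. Zap70 was higher with high-dose zalfermin (11.9 against 5.89 CPM). Which cells carried Themis and Zap70 was not tested, and none of the 10 members passed in these treatments. In the cytotoxic and natural killer list, Cd160 alone passed, with high-dose zalfermin (0.539 against 0.184 CPM), a call kept in 6 of 16 such fits.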

How the data were processed

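Liver RNA of 56 mice in 7 groups of 8 was measured by RNA sequencing. The authors describe stranded mRNA libraries and reads mapped by STAR (GRCm38, Ensembl annotation), while the submitters' processing notes name Trim Galore 0.6.4, Salmon 1.9.0 and GRCm38. The counting step and its use of strand are not given in the sources used here. The authors deposited whole-number counts of reads per gene without normalization, for 21935 genes, of which 4352 had no read. Groups came from the labels, and all columns matched a sample. The series description says that 1 low-dose semaglutide sample was excluded, but none is marked, so all were used.

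A gene was tested where at least 3 samples held at least 5 reads of it (14105 genes), in edgeR 4.0.16 (R 4.3.3) with TMM normalization, 1 quasi-likelihood fit of 7 groups and Benjamini-Hochberg adjustment over 14105 genes at 0.05. The biological coefficient of variation was 22.6%. Log2 CPM used a prior count of 2. Standard errors came from the fit's information matrix. Nothing in the labels says how mice were processed together, so p-values measure the spread between these samples. The study's methods give single housing from the liver biopsy onward. Ratios and correlations used Python 3 with scipy and numpy, figures matplotlib. Alternatives were DESeq2 1.42.0 (Wald test, and its size factors in edgeR), other low-count filters, the runs of sample numbers as a covariate, the compared groups alone, and each sample left out.

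The members and lists were chosen with earlier results of these data known. Named genes were all 10 members, at most the 4 genes with the smallest p and the 2 most abundant of each list and comparison, and the 10 genes most like the CD3 chains. Further genes were named after their values were seen, as stated. On simulated counts for 13480 genes, the comparison of chow with DIO-MASH vehicle recovered 99.5% of 192 genes changed 4 times, with 6.83% false calls. The simulation gave every gene the same dispersion and fitted these groups alone. Recovery was not simulated for genes that spread as widely as Cd4, at 2.46 ± 2.05 CPM in DIO-MASH vehicle (SD, n = 8). Precision at depth is limited by reads: the 10 genes together had 9 to 462 per library. Positions and exon lengths are from GENCODE (GRCm38), promoter windows from RefSeq (GRCm38.p6).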

Additional observations from a re-analysis of the deposited data

Results flagged for a closer look

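Each of the 10 genes and both co-receptor ratios were checked in each group of 8 for 1 liver far from the other 7 (Dixon's ratio, 95% critical value), which gave 6 flags in 84 groups, and chance flags about 1 in 20 groups. In chow vehicle, replicate 8 lay far above the other livers for Cd8a (4.06 CPM, others at most 0.901), Gzmb (3.32 CPM, others at most 0.718), Cd3g (3.08 CPM, others at most 0.527), Nkg7 (3.08 CPM, others at most 1.28) and Lck (2.46 CPM, others at most 0.710). This liver also had the highest summed level of the intestinal epithelium list among all 56 livers, and the part of those genes in its values was not tested. In the combination, replicate 2 lay above the others for Cd8b1 at 2.41 CPM, with 37 reads, where the others ended at 1.05 CPM.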

How the results depend on the processing

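Leaving out 1 liver at a time, the count of members higher than in chow ran from 3 to 8 for the combination and from 4 to 8 for high-dose semaglutide. For low-dose zalfermin it ran from 4 to 9, beside 6 with all livers. With only the groups compared in the fit, the count for the combination was 3. After the means of each group within each run of sample numbers were subtracted, the relation of Cd3e with Cd4 no longer passed (r = 0.31, rho = 0.29). The other counts of members stayed within 1.5 times under every alternative that gave a value, including both chow vehicle replicate 8 and low-dose semaglutide replicate 6 left out, and no called value of the members turned its sign. Of the other lists, without chow vehicle replicate 8 the counts higher in chow fell from 1 to 0 for the cytotoxic, inhibitory receptor and mast cell lists, where Klk1 turned from higher to lower (0.0311 against 0.221 CPM), and the count lower rose from 1 to 3 for gamma-delta and innate-like genes. With 1 liver left out, 0 to 5 B cell and plasma cell genes were lower with high-dose semaglutide. These alternatives for the lists were chosen after seeing the data. Among single members, 58 alternative values lost the threshold and 34 gained it, most often for Cd8a. No paired analysis was possible because the labels give each mouse its own number and replicates were numbered only in accession order. Low counts limit all results: at a median of 161 reads per liver on 10 genes, only large changes can pass, and DESeq2 gave no adjusted p for the members in several comparisons of treatments.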

Other observations

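Among the lists for inhibitory receptors and for recruitment, a few genes moved with treatment where the 10 members did not pass. Of all genes, 20.9% passed in the combination and 17.2% with high-dose zalfermin. Ccr2, a chemokine receptor of monocytes and some T cells, was at 6.38 against 15.1 CPM in the combination against DIO-MASH vehicle, lower at an adjusted p of 0.00161 in edgeR, and at 7.78 CPM with high-dose zalfermin, also lower. Nr4a2, a nuclear receptor induced by activation, was lower with the combination (0.609 against 1.30 CPM) and with high-dose zalfermin (0.452 against 1.30 CPM). Cd200r1 was lower with the combination, a call kept in 5 of 16 fits that left out 1 liver. Pvr was lower with high-dose zalfermin, a call kept in 16 of 16.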
